A study of Mus musculus with 6 samples.

Results

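The 36 microRNA genes described here are the rows of the deposited expression table whose GENCODE gene type is miRNA and whose value reached 1 FPKM in at least 3 of 6 libraries of mouse blastocysts. They were chosen by this level, from 2207 microRNA genes among the 55774 rows of the table, so the levels themselves are a description and carry no test. FPKM are fragments per kilobase of gene, scaled to the fragments of the library. Of the other microRNA genes, 1390 were listed at 0 in all 6 libraries and 781 had a value above 0 somewhere without meeting the rule. The threshold fell between near neighbours, since the third highest value was 1.03 FPKM in Gm23632 and 1.06 in Mir3077, just inside, and 0.980 in Gm22759 and 0.971 in Mir763, just outside.

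The libraries came from wild-type ICR mouse embryos, collected at the 2-cell stage and grown to blastocysts in CZB medium with extracellular vesicles from human Fallopian tubes. In the oEV-EMT group (n = 3 libraries) the vesicles came from women with endometriosis, and in the oEV-ctrl group (n = 3) from women without it, for whom the labels name uterine fibroids and the study's text another gynaecological condition. Both groups therefore received human vesicles, and each library was a pool of 10 blastocysts. Polyadenylated RNA was selected before a library was made that does not keep the strand, and nothing in the labels ties a replicate to a separate batch of vesicles, so the spread between libraries may be in part technical.

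A microRNA is cut from a hairpin inside a longer primary transcript by Drosha and Dgcr8 in the nucleus, exported by Xpo5, cut again by Dicer1 and loaded as a short single strand into an Argonaute protein, where its seed pairs with target mRNAs. Many hairpins lie in introns or exons of host genes and are made from the host's transcript. Early mouse embryos are known for the miR-290 to miR-295 cluster and for microRNAs of the Sfmbt2 intron. Neither the hairpin nor the mature strand has a poly(A) tail. The values below therefore describe reads over a hairpin locus, in libraries selected for polyadenylated RNA, and not the amount of any mature microRNA.

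RefSeq (GRCm38.p6) held an entry for 16 of the 36 genes. The mature sequences below belong to the genes on which the comparisons turn, written 5′ to 3′ with the seed, bases 2 to 8, in capitals. The first 3 belong to genes with lower values in oEV-EMT, the next 2 to neighbours on chromosome X, and the last 5 to genes whose levels are set against a host gene.
mmu-miR-703 (chr5:98475616-98475636, minus strand): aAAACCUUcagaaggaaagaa
mmu-miR-5128 (chr2:37688212-37688234, minus strand): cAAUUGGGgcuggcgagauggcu
mmu-miR-3473a (chrX:162874920-162874937, minus strand): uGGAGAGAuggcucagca
mmu-miR-351-5p (chrX:53053315-53053338, minus strand): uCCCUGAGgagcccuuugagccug
mmu-miR-503-5p (chrX:53054027-53054049, minus strand): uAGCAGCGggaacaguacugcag
mmu-miR-22-3p (chr11:75463772-75463793, plus strand): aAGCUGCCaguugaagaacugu
mmu-miR-101a-3p (chr4:101346957-101346977, minus strand): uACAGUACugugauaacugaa
mmu-miR-8114 (chr1:153899989-153900009, plus strand): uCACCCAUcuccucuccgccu
mmu-miR-3091-5p (chr2:180257547-180257567, plus strand): cAUGGGUCugguugggcccgc
mmu-miR-5136 (chr19:8888709-8888728, minus strand): aUAUGCGAgggaacuacugg
No 2 of these seeds were the same. The seed of miR-351-5p, CCCUGAG, was shared with 4 other mature mouse microRNAs in the RefSeq table, miR-125a-5p, miR-125b-5p, miR-6367 and miR-6394, of which none came from a gene among the 36.

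The annotated loci were 57 to 138 bases long, with a median of 95 bases, and had a median GC content of 55.0%, against 50.7% in the 2166 other microRNA genes with a sequence. An FPKM over so short a length rests on few fragments, and the effect of this on single values was not tested. Of the 36 loci, 15 lay in an exon of another gene on the same strand, 7 in an intron on the same strand, 1 opposite an exon, 8 opposite an intron, and 5 overlapped no other gene. As the strand was not kept, reads from a locus and from a gene opposite to it cannot be told apart in 9 of them. Among all listed microRNA genes, 3.55% of those in same-strand exons met the rule, 3.56% of those opposite an intron, 0.884% of those in same-strand introns and 0.751% of those with no overlapping gene. The 15 exons belonged to 7 protein-coding genes, 3 pseudogenes and 5 noncoding RNAs. Levels were uneven, with 3 genes above a mean of 100 FPKM, 7 between 10 and 100, and 26 below 10. In 16 genes all 6 libraries reached 1 FPKM, in 6 genes exactly 3 did, and none reached it in libraries of 1 group only. The libraries of 1 group could still be enough for the rule. In Gm26384, Gm26269 and Gm23638 all 3 oEV-ctrl libraries reached 1 FPKM and most oEV-EMT libraries did not. The members together held between 0.0363% and 0.102% of the summed FPKM of a library.

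**Figure D1:**
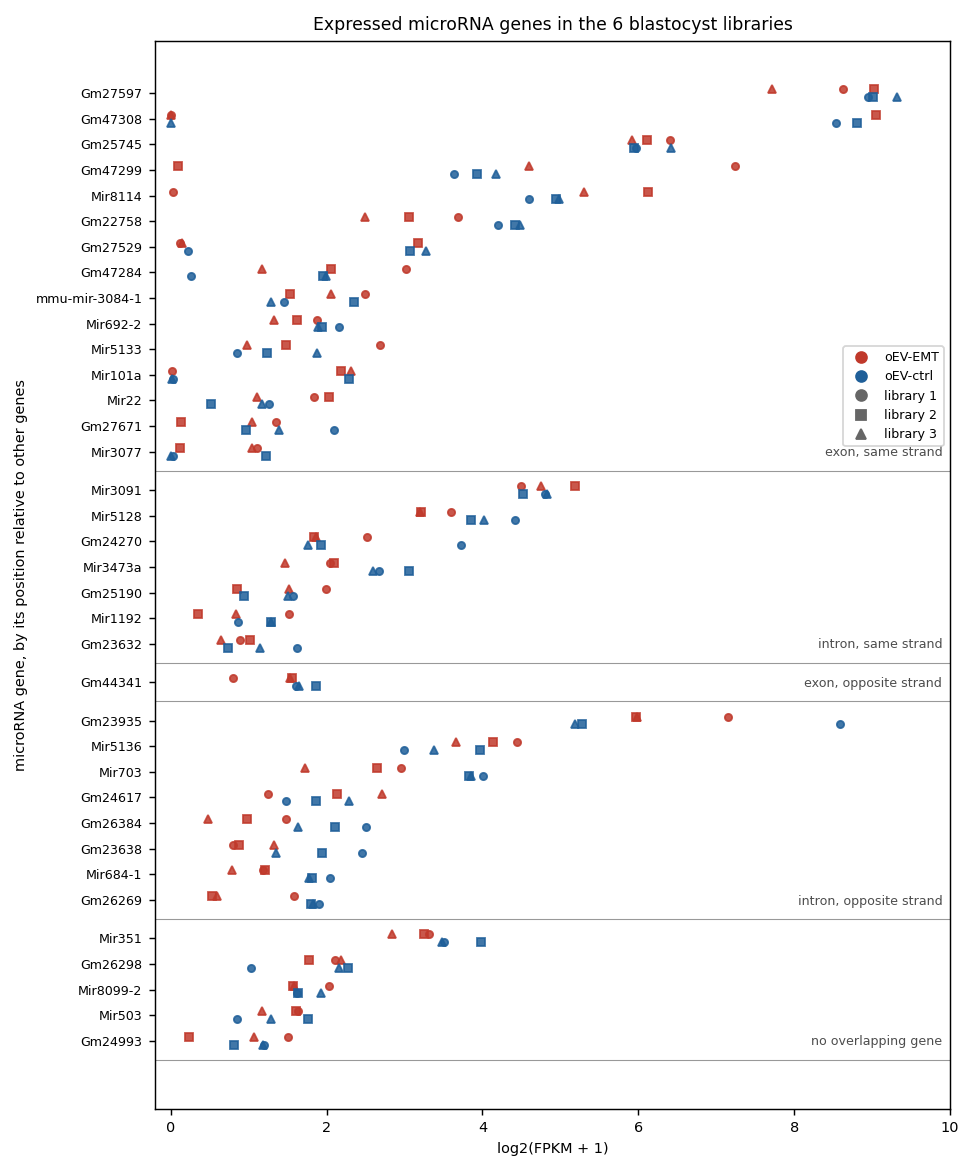
Level of the 36 expressed microRNA genes in each library, as log2(FPKM + 1) on the x axis, with one row per gene in blocks by position relative to other genes. Red symbols are the oEV-EMT libraries and blue symbols the oEV-ctrl libraries, and most genes lie near the lower end of the scale while a few in same-strand exons spread widely between libraries, as Gm47308 does from near 0 to 529 FPKM.

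The embryos expressed the blastocyst lineage markers, with all 7 trophectoderm, 5 epiblast and inner cell mass and 5 primitive endoderm genes passing the same filter. None of 7 cumulus and granulosa markers and none of 3 oviduct markers passed it, and Amh, Ptx3, Cyp19a1, Fshr and Foxj1 were listed at 0 in all 6 libraries, while 1 of 3 blood markers did. The summed level of the trophectoderm markers was 3120 to 4730 FPKM in oEV-EMT and 3070 to 4830 in oEV-ctrl. That of the primitive endoderm markers was 30.3 to 46.9 against 30.6 to 36.1, and the groups overlapped in both. For the epiblast and inner cell mass markers it was 77.3 to 91.0 FPKM in oEV-EMT and 34.2 to 60.3 in oEV-ctrl, without overlap. In such pools, fewer cells of a type and less RNA per cell cannot be told apart, and the part of this difference in the results below was not tested.

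The members were then compared between oEV-EMT and oEV-ctrl, the question being whether vesicles from women with endometriosis go with another level of these transcripts. With equal weights for the libraries, no member passed the study's thresholds, an adjusted p of at most 0.05 and a log2 fold change of at least 1 in size. In limma on log2(FPKM + 1) with Benjamini-Hochberg adjustment over all 11924 genes tested, the smallest adjusted p of a member was 0.118, and 0 of all genes were called (0%). The study itself, with DESeq2, did report genes past these thresholds, so the 0 belongs to the limma fit. On simulated data that fit recovered only 0.1% of genes changed by a log2 of 1. With limma's library weights, 3 of the 36 members passed both thresholds, Gm22758, Mir703 and Gm26269, as did 104 of all 11924 genes tested. At an unadjusted p of at most 0.05, 8 of 36 members (22.2%) were lower in oEV-EMT, against 2.55% of all genes tested. In the other direction 1 member (2.78%) was higher, against 12.8% of all genes. The 8 were Mir703, Gm22758, Mir684-1, Gm26384, Mir3473a, Gm26269, Mir5128 and Gm23638. Of these, Gm26384, Gm26269 and Gm23638 met the rule through the oEV-ctrl libraries, where they were high, so their being lower in oEV-EMT is tied to the rule. The groups did not overlap, with all 3 oEV-EMT libraries below all 3 oEV-ctrl libraries, in 11 members (30.6%), against 4.34% of all genes. They did not overlap in the higher direction in 0 members, against 18.1% of all genes. The median log2 fold change, oEV-EMT over oEV-ctrl, was -0.28 over the members and 0.17 over all genes tested, and 27 of the 36 lay below the latter. Fold changes are given as log2 ± SE. The members' fold changes ran from -2.76 to 0.72, with 20 below 0 and 16 above.

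The share of members lower at that p differed between the position classes, beside 2.55% of all genes tested. It was 62.5% (5 of 8 loci) opposite an intron and 28.6% (2 of 7) in same-strand introns. In same-strand exons it was 6.67% (1 of 15), and outside other genes 0% (0 of 5). Among the 5 lower loci opposite an intron, Gm26384, Gm26269 and Gm23638 met the rule through the oEV-ctrl libraries. The share opposite introns is therefore tied to the rule. The median log2 fold change was -0.86 opposite introns, -0.31 in same-strand introns, 0.03 in same-strand exons and 0.00 outside other genes. Sequence shared with other transcripts differed along with this. Runs of 30 identical bases were searched on both strands of annotated transcripts, and not in introns or between genes. In this search 19 members shared at least 1 with a gene elsewhere. Of these 19, 6 were lower at an unadjusted p of at most 0.05, with a median of -0.40. Of the 17 members that shared none, 2 were lower and 1 was higher, with a median of 0.03. This split was made after the values were seen, and its part in the differences was not tested. Gm26384, Gm26269 and Gm23638, tied to the rule, are also among the 6 lower members that shared sequence.

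Mir703 (chr5:98475556-98475664, minus strand, opposite an intron of Cfap299) had the smallest p of all members. Its level was 6.76, 5.29 and 2.30 FPKM in oEV-EMT and 15.0, 13.2 and 13.5 in oEV-ctrl. The 3 control libraries lay close together, all well above the highest oEV-EMT library. The log2 fold change was -1.45 ± 0.31 (SE; unadjusted p = 0.000732, adjusted p = 0.118 by limma). The whole miR-703 sequence printed above occurred on the same strand in Eef1a1, which encodes a translation elongation factor, and 38.8% of the 30-base stretches of Mir703 were in its transcripts. Eef1a1 itself was at 3243, 3024 and 3114 FPKM in oEV-EMT and at 3626, 3150 and 3312 in oEV-ctrl, groups that overlapped, with a log2 fold change of -0.10.

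Gm26384 (chr17:21284103-21284212, minus strand, opposite an intron of Vmn1r236) also contained the miR-703 sequence and shared 64.2% of its stretches with Eef1a1. It was at 1.78, 0.976 and 0.393 FPKM in oEV-EMT and at 4.71, 3.32 and 2.10 in oEV-ctrl. The groups did not overlap, and the log2 fold change was -1.11 ± 0.31 (unadjusted p = 0.0045, adjusted p = 0.167). The genes opposite these loci were hardly detected, as Vmn1r236, a vomeronasal receptor gene, was listed at 0 in all 6 libraries and Cfap299 did not exceed 0.335 FPKM.

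Gm22758 (chr2:156410929-156411024, minus strand) lay inside the processed pseudogene Gm14173 and had the highest level of the 8. It was at 11.8, 7.31 and 4.62 FPKM in oEV-EMT (7.93 ± 3.65, SD, n = 3) and at 17.3, 20.3 and 21.4 in oEV-ctrl (19.7 ± 2.11, n = 3). The groups stood apart, with a log2 fold change of -1.29 ± 0.30 (unadjusted p = 0.00133, adjusted p = 0.135). The pseudogene around it had the same order of groups, at 2.57, 1.49 and 1.05 FPKM in oEV-EMT and 3.79, 4.45 and 4.68 in oEV-ctrl. Expressed as log2, its fold change was -1.01 ± 0.25 (unadjusted p = 0.00228, adjusted p = 0.158). Gm22758 shared 46.3% of its stretches with Gm4149 and further stretches with Rpl37a, which encodes a protein of the large ribosomal subunit. Those genes, both far above it in level, had log2 fold changes of -0.57 ± 0.29 and -0.44 ± 0.24.

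Mir684-1 (chr2:80628705-80628790, minus strand, opposite an intron of Nup35) was at 1.28, 1.32 and 0.731 FPKM in oEV-EMT and at 3.13, 2.50 and 2.42 in oEV-ctrl. Every oEV-EMT library was below every control library, and the log2 fold change was -0.81 ± 0.21 (unadjusted p = 0.00339, adjusted p = 0.164). Of its 30-base stretches, 98.2% were also in Sumo2, a gene for a small protein that is attached to other proteins. Sumo2 had its values the other way round, with 299, 333 and 376 FPKM in oEV-EMT and 230, 242 and 285 in oEV-ctrl (log2 fold change 0.41 ± 0.19, unadjusted p = 0.0532). Nup35, a gene for a nuclear pore protein, likewise had its 3 oEV-EMT libraries above its controls, with 68.7, 68.2 and 89.3 FPKM against 49.5, 60.1 and 60.2.

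Mir5128 and Mir3473a lay in same-strand introns, of Strbp and of Syap1, and shared no 30-base stretch with annotated transcripts of genes elsewhere. Mir5128 (chr2:37688201-37688284, minus strand) was at 11.1, 8.25 and 8.22 FPKM in oEV-EMT and at 20.3, 13.5 and 15.3 in oEV-ctrl, without overlap, and its log2 fold change was -0.76 ± 0.24 (unadjusted p = 0.00859, adjusted p = 0.194). Mir3473a (chrX:162874918-162874995, minus strand) was at 3.13, 3.26 and 1.77 FPKM in oEV-EMT and at 5.35, 7.36 and 5.05 in oEV-ctrl, again without overlap, with a log2 fold change of -0.91 ± 0.25 (unadjusted p = 0.00476, adjusted p = 0.17). Their hosts overlapped between groups. Strbp, which encodes an RNA-binding protein, had a log2 fold change of -0.36 ± 0.28, and Syap1 one of -0.11 ± 0.25. The mature strands of both genes hold a common stretch of 9 bases, shown in capitals here.
mmu-miR-5128: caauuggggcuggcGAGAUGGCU
mmu-miR-3473a: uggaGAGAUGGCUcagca
The stretch GAGAUGGCU, searched on both strands, was in 2 of the 36 members (5.56%) and in 39 of 2202 microRNA genes with a sequence (1.77%). The 18 bases of miR-3473a occurred without a mismatch in annotated transcripts of 283 other genes, 147 of them on the same strand. The 23 bases of miR-5128 occurred in the transcripts of 0 other genes. Introns, such as that of Strbp which holds Mir5128, were not searched.

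The remaining 2 of the 8 had many near-copies. Gm26269 (chr16:31982109-31982234, plus strand, opposite an intron of Senp5) shared stretches with 2231 genes elsewhere, and Gm23638 (chr2:18129452-18129577, minus strand, opposite an intron of Mllt10) with 2499. Gm26269 was at 2.01, 0.450 and 0.514 FPKM in oEV-EMT and at 2.73, 2.49 and 2.55 in oEV-ctrl. In limma the log2 estimate was -0.94 ± 0.28 (unadjusted p = 0.0077, adjusted p = 0.19). Gm23638 was at 0.745, 0.839 and 1.5 FPKM in oEV-EMT and at 4.49, 2.83 and 1.55 in oEV-ctrl, where the highest oEV-EMT library almost touched the lowest control, and its log2 fold change was -0.91 ± 0.29 (unadjusted p = 0.0104, adjusted p = 0.204). Gm25190 and Gm23632 shared with 1866 and 1384 genes, and their groups overlapped, with log2 fold changes of 0.12 and -0.31. Reads from such repeated sequence can be placed at several loci, so these values are uncertain.

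**Figure D2:**
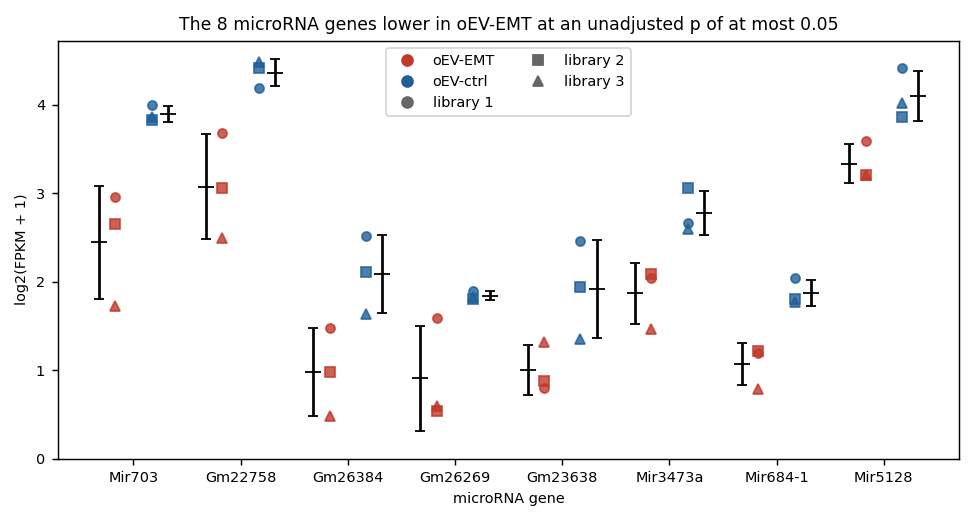
Levels of the 8 microRNA genes that were lower in oEV-EMT at an unadjusted p of at most 0.05, as log2(FPKM + 1) on the y axis, with 1 symbol per library and black bars for the mean ± SD of each group (n = 3). In each gene the 3 red oEV-EMT symbols lie below the 3 blue oEV-ctrl symbols, with the smallest gap in Gm23638, and with equal library weights none of the 8 passed an adjusted p of 0.05.

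Besides the 8, the groups did not overlap in Mir351, Mir692-2 and Gm44341, whose unadjusted p exceeded 0.05. Mir351 and Mir503 lie 631 bases apart on the X chromosome, within the cluster that also holds Mir322 and Mir450b, and overlap no annotated gene. Mir351 (chrX:53053255-53053353, minus strand) was at 8.97, 8.50 and 6.18 FPKM in oEV-EMT and at 10.3, 14.7 and 10.2 in oEV-ctrl. On the log2 scale the fold change was -0.52 ± 0.24 (unadjusted p = 0.0566, adjusted p = 0.339). The nearest annotated gene, the noncoding RNA Gm28730 at 96 bases from Mir351, was below the filter and not tested. It had the same order of groups, at 0.693, 0.612 and 0.591 FPKM in oEV-EMT against 1.48, 1.55 and 0.796 in oEV-ctrl. Mir503 was at 2.12, 2.05 and 1.26 FPKM against 0.806, 2.38 and 1.44, groups that overlapped. Mir322, also nearby, reached no more than 0.622 FPKM. The noncoding transcript C430049B03Rik, 992 bases from Mir503, was far higher, at 72.4, 44.9 and 46.1 FPKM in oEV-EMT and 59.9, 46.2 and 61.5 in oEV-ctrl. Expressed as log2, its fold change was -0.06 ± 0.24.

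The single member with a higher value at an unadjusted p of at most 0.05 was Mir22 (chr11:75463716-75463810, plus strand), in an exon of its host transcript Mir22hg. It was at 2.59, 3.08 and 1.15 FPKM in oEV-EMT and at 1.39, 0.434 and 1.26 in oEV-ctrl. Library 3 of oEV-EMT lay among the controls, so the groups overlapped, and the log2 fold change was 0.68 ± 0.29 (unadjusted p = 0.0439, adjusted p = 0.31). No member was higher at that p with a pseudocount of 0.1, without the filter, or after median-of-ratios or upper quartile scaling. Mir22hg was at 1.76, 1.61 and 0.996 FPKM against 1.58, 1.49 and 1.30, with a log2 fold change of -0.01 ± 0.21. Mir5136 (opposite an intron of Lbhd1) was the nearest to it, at 20.8, 16.6 and 11.6 FPKM in oEV-EMT and 6.95, 14.6 and 9.37 in oEV-ctrl. In limma the log2 estimate was 0.64 ± 0.30 (unadjusted p = 0.0582).

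Of the 10 members with a mean of at least 10 FPKM, 6 lay in same-strand exons of other genes. Gm27597 (chr11:98029413-98029492, plus strand), all 80 bases of which are coding sequence of the ribosomal protein gene Rpl19, was the highest, at 394, 519 and 209 FPKM in oEV-EMT (374 ± 156, SD, n = 3) and 493, 517 and 638 in oEV-ctrl (549 ± 77.8, n = 3). The groups overlapped, with a log2 fold change of -0.64 ± 0.30 (unadjusted p = 0.0616, adjusted p = 0.348). Without oEV-EMT library 3 it was -0.27 (unadjusted p = 0.246 by limma), and after median-of-ratios or upper quartile scaling -0.84 or -0.91 (unadjusted p = 0.0162 or 0.00907). Rpl19 itself was at 1417, 1382 and 1081 FPKM in oEV-EMT and at 1160, 1034 and 1279 in oEV-ctrl. On the log2 scale the fold change was 0.15 ± 0.19. Gm25745, in the 5′ UTR and coding sequence of the endoplasmic reticulum chaperone gene Hsp90b1, was even across the libraries, at 83.5, 68.2 and 59.3 FPKM against 61.6, 60.6 and 84.3. Its log2 fold change was 0.03 ± 0.22, and that of Hsp90b1 was -0.17 ± 0.18. Mir3091, in an intron of the ribosomal protein gene Rps21, was also even, at 21.6, 35.5 and 25.8 FPKM against 27, 22 and 27.4, and stood at 4.60% of the level of its host.

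Gm23935 (chr16:11144125-11144181, plus strand) and Gm24270 (chr9:56223715-56223771, minus strand) have the same 57 bases on 2 chromosomes, shown here on the strand of each gene (GRCm38), so that no read inside them can be assigned by its sequence.
Gm23935 and Gm24270: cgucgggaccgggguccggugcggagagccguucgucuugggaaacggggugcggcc
Both were highest in oEV-ctrl library 1 and next in oEV-EMT library 1. Gm23935 was at 141, 61.8 and 62.0 FPKM in oEV-EMT and at 383, 37.9 and 35.3 in oEV-ctrl. Gm24270 was at 4.72, 2.58 and 2.65 FPKM against 12.2, 2.80 and 2.40. The ratio of the pair ran from 13.5 to 31.4 across libraries although the sequence was the same. The groups overlapped in both genes, with log2 fold changes of 0.02 ± 1.08 for Gm23935 and -0.40 for Gm24270. The value of Gm23935 rested on oEV-ctrl library 1, without which the groups no longer overlapped and its log2 fold change was 1.14 (unadjusted p = 0.0126 by limma).

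Over the 28 members whose host gene was itself tested, the member's FPKM was below that of the host in 19. The median member stood at 54.2% of its host in same-strand exons (n = 15), 16.9% in same-strand introns (n = 7) and 47.5% opposite introns (n = 5). Of these host genes, 2 of 28 (7.14%) were lower at an unadjusted p of at most 0.05 and 0 (0%) higher, against 2.55% and 12.8% of all genes tested, and their median log2 fold change was -0.10. Member and host had a fold change of the same sign in 16 of 28 pairs, and the median of member minus host was -0.26 on the log2 scale. The per-library difference between member and host, in log2(FPKM + 1), did not overlap between groups in 5 pairs. It was lower in oEV-EMT for Gm27597 with Rpl19 (difference -0.79), Gm22758 with Gm14173 (difference -0.28), Mir684-1 with Nup35 (difference -1.21) and Gm26269 with Senp5 (difference -1.07), and higher for Mir22 with Mir22hg (difference 0.69). For each of these the exact two-sided permutation test gave p = 0.1, the smallest that 3 libraries against 3 allow, and 28 such pairs were compared. The added 1 weighs most on low hosts such as Gm14173, which was at 1.05 to 4.68 FPKM. In plain FPKM the ratio of Gm22758 to Gm14173 overlapped between groups, so this pair cannot be read as a member lower relative to its host.

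**Figure D3:**
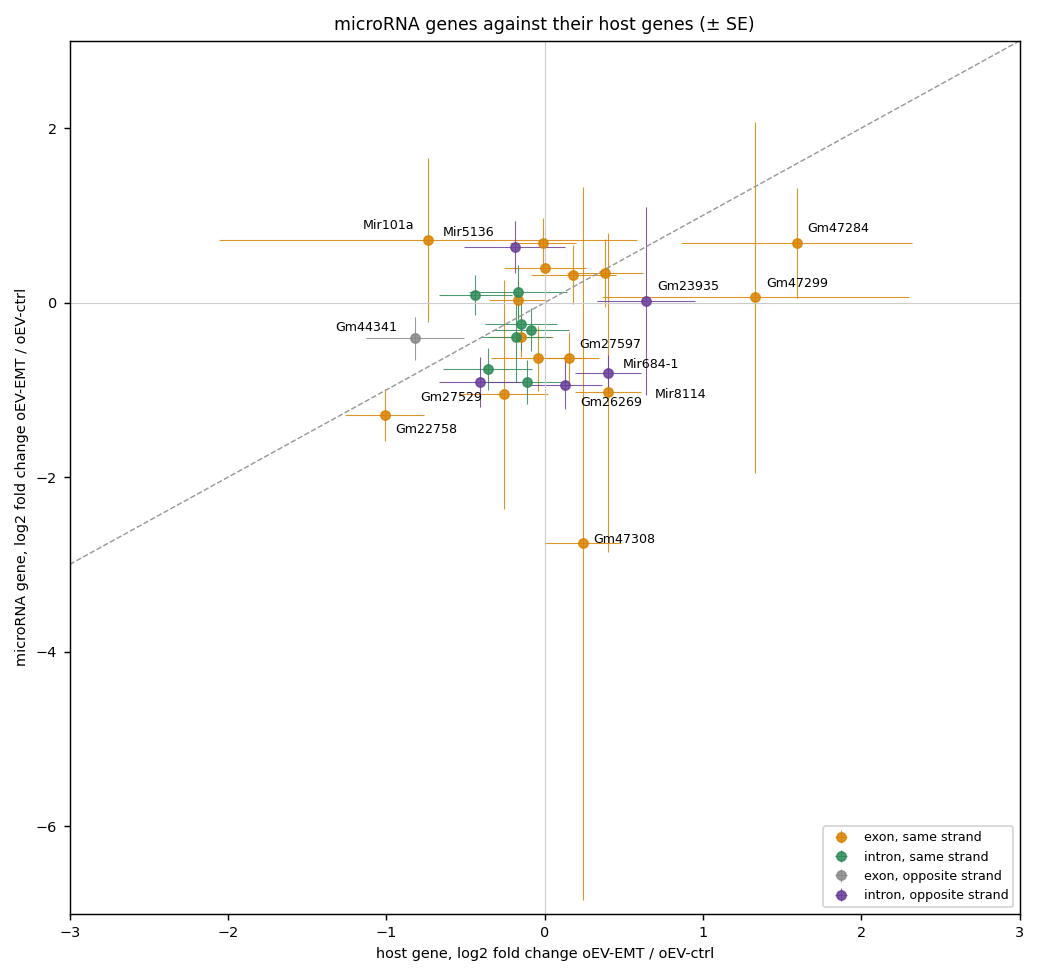
Log2 fold change (oEV-EMT over oEV-ctrl) of each microRNA gene on the y axis against that of its host gene on the x axis for the 28 pairs with both tested, with bars for the SE and the dashed line marking equal changes. In 19 pairs the microRNA gene lies below the line, and Gm47308 has the widest bar, at -2.76 with an SE of 4.08.

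Some members were present in part of the libraries and close to 0 in the rest, in either group. In 6 of the 36 (16.7%) the lowest library was under 1% of the highest, against 63 of all 11924 genes tested (0.528%). All 6 lay in same-strand exons. The widest was Gm47308 (chr9:64726624-64726730, minus strand), all 107 bases of which lie in an exon of Rab11a, a gene for a GTPase of recycling endosomes. It was at 3.6e-05, 529 and 0.000101 FPKM in oEV-EMT and at 370, 445 and 3e-06 in oEV-ctrl. Thus 3 libraries were at 370 FPKM or more and the other 3 at nearly nothing, in both groups. Rab11a varied only 1.83-fold over the same libraries, from 117 to 215 FPKM.

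Mir8114, 93 of whose 111 bases lie in the 5′ UTR of the glutamine synthetase gene Glul, was at 0.018, 68.8 and 38.5 FPKM in oEV-EMT and at 23.3, 29.8 and 30.7 in oEV-ctrl. A single library, oEV-EMT 1, was near 0, while Glul was at 46.8 FPKM there, its highest. Gm47299, in the 7SL RNA gene Rn7s2, had its drop in oEV-EMT library 2, with 150, 0.0708 and 23.2 FPKM against 11.4, 14.3 and 17.0. Rn7s2 did not drop there, at 354, 42.5 and 31.6 FPKM in oEV-EMT and 27.5, 29.8 and 35.4 in oEV-ctrl, and both genes peaked in oEV-EMT library 1.

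Mir101a (chr4:101346945-101347027, minus strand), within an exon of the noncoding RNA E130102H24Rik, alternated with its host. It was at 0.0127, 3.54 and 3.97 FPKM in oEV-EMT and at 0.0251, 3.89 and 0.0147 in oEV-ctrl. E130102H24Rik was at 8.42, 0.044 and 0 FPKM in oEV-EMT and at 4.87, 0 and 6.85 in oEV-ctrl. In each library one of the pair held almost the whole signal, and their sum ran only from 3.58 to 8.44 FPKM. Gm27529, a copy of Gm27597 in the pseudogene Rpl19-ps6, was at 0.0835, 8.01 and 0.102 FPKM against 0.163, 7.39 and 8.71. Mir3077, in an exon of Sap18, was at 1.15, 0.0822 and 1.06 FPKM against 0.0208, 1.33 and 0.00697. For both, low and high libraries were found in each group. How the authors' software divided the reads of one exon between overlapping annotated genes is not given in the sources used here, and its part in these values was not tested.

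**Figure D4:**
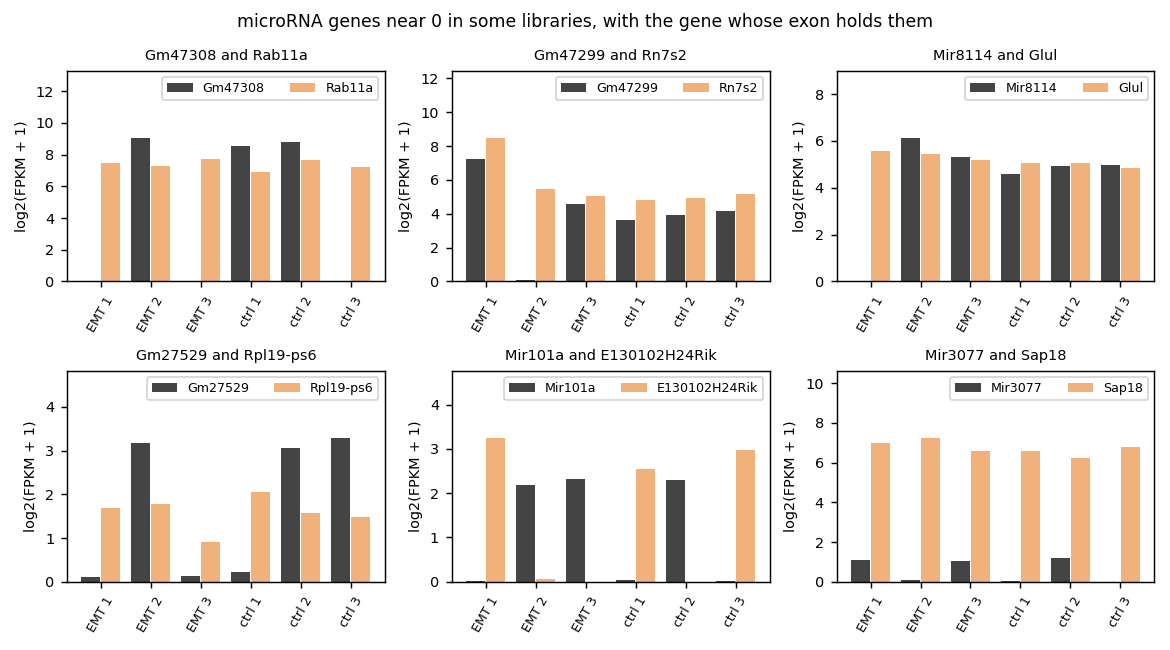
Levels of the 6 microRNA genes whose lowest library was under 1% of the highest (dark bars) and of the gene whose exon holds them (light bars), as log2(FPKM + 1) on the y axis in the 6 libraries on the x axis. Gm47308 is near 0 in EMT 1, EMT 3 and ctrl 3 while Rab11a stays between 117 and 215 FPKM, and Mir101a and E130102H24Rik alternate between libraries.

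The remaining members had overlapping groups apart from 2. Mir692-2, in the ferritin pseudogene Ftl2-ps, was at 2.66, 2.07 and 1.51 FPKM in oEV-EMT and 3.48, 2.84 and 2.72 in oEV-ctrl, and the whole miR-692 sequence occurred in 15 other genes, Ftl1 among them. Gm44341, opposite an exon of the histone pseudogene Hist1h2al, was at 0.741, 1.94 and 1.88 FPKM against 2.04, 2.64 and 2.12. In neither did the unadjusted p fall below 0.05, at 0.11 and 0.13. Gm24617 and Gm26298 shared every 30-base stretch of their own with genes elsewhere, among 213 such genes each, and had log2 fold changes of 0.15 and 0.20. A pair of members overlapped small nucleolar RNA genes, which guide RNA modification. Of the pair, Gm47284 had a log2 fold change of 0.68 ± 0.63 beside 1.59 ± 0.73 for Gm24888, and mmu-mir-3084-1 one of 0.32 ± 0.34 beside 0.18 for Snora19. The other 6, Mir8099-2, Mir5133, Gm27671, Mir1192, Gm24993 and Gm23632, had mean levels of 1.07 to 2.34 FPKM and log2 fold changes of -0.64 to 0.40.

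The microRNA families best known from mouse embryonic cells were not among the members. Of 142 genes listed in 5 such clusters, 0 met the rule and 49 were at 0 in all libraries. In the miR-290 to miR-295 cluster 7 of 9 genes were at 0 throughout, and the highest value was 0.152 FPKM in Mir290a. The highest value was 1.17 FPKM for miR-302 and miR-367 (Mir302b), 0.585 for the miR-17 to miR-92a-1 cluster (Mir18), 0.0670 for miR-106b to miR-25 (Mir25) and 1.00 for the 119 genes of the Sfmbt2 intron (Mir669a-5). Host genes were looked up for the other 4 clusters and not for miR-290 to miR-295. Sfmbt2 was at 6.92, 6.89 and 7.95 FPKM in oEV-EMT and at 6.81, 9.51 and 7.71 in oEV-ctrl, and Mir17hg at 3.49, 1.76 and 3.20 against 0.386, 2.53 and 2.24, with overlapping groups in both. Mcm7, the replication helicase gene that hosts miR-106b to miR-25, was at 53.4, 36.6 and 27.5 FPKM against 22.7, 22.2 and 29.5, with a log2 fold change of 0.60 ± 0.26 (unadjusted p = 0.0462, adjusted p = 0.316).

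The genes that make and use microRNAs were compared in the same way. Of 30 such genes 26 were tested, and at an unadjusted p of at most 0.05 0 (0%) were lower and 1 (3.85%) was higher, against 2.55% and 12.8% of all genes tested, with a median log2 fold change of 0.06 and a range of -0.33 to 0.59. For cropping in the nucleus, Drosha was at 7.62, 7.08 and 6.39 FPKM in oEV-EMT and 7.82, 6.84 and 6.53 in oEV-ctrl (log2 fold change -0.01 ± 0.21), and its partner Dgcr8 had a log2 fold change of 0.12 ± 0.22. The exporter Xpo5 had 0.35 ± 0.22 and the Argonaute gene Ago2 0.04 ± 0.23. Dicer1 was at 2.47, 1.42 and 1.04 FPKM against 2.26, 2.31 and 2.08, where both the highest and the lowest values were in oEV-EMT (-0.32 ± 0.24). Its log2 fold change was -0.53 without oEV-EMT library 1 (unadjusted p = 0.0212 by limma) and -0.15 without oEV-EMT library 3. Lin28a, which blocks let-7 maturation, was the gene with the higher value, at 3.13, 1.62 and 1.35 FPKM in oEV-EMT and 0.959, 0.860 and 1.04 in oEV-ctrl, without overlap (0.59 ± 0.24, unadjusted p = 0.0339, adjusted p = 0.287). It missed that p in 7 of 14 alternatives, with 0.35 (unadjusted p = 0.0819) without oEV-EMT library 1 and 0.44 (unadjusted p = 0.0839) after upper quartile scaling. Lin28b, also a gene of let-7 control, was below the filter, together with Ago1, Tnrc6c and Adar.

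**Figure D5:**
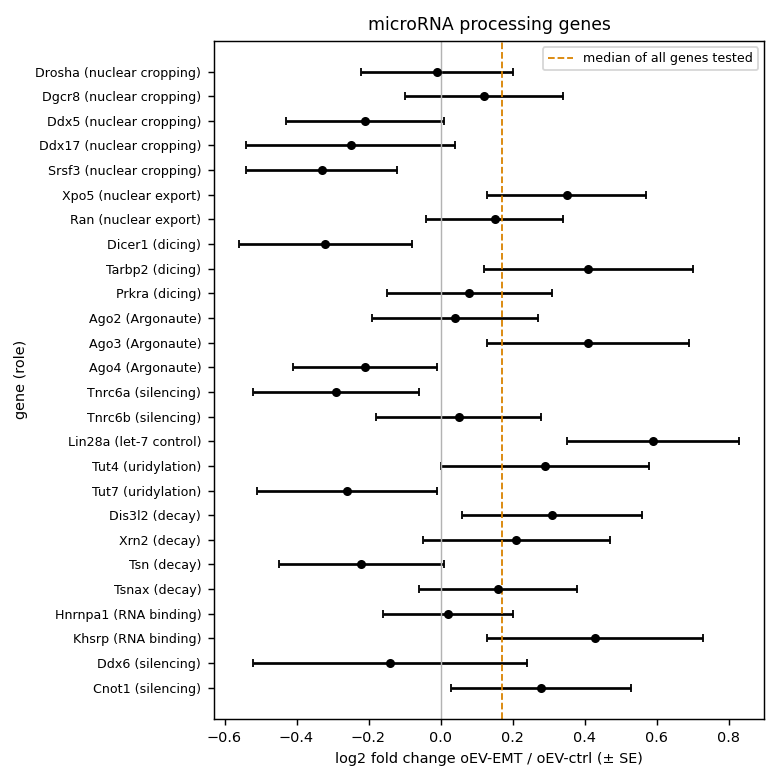
Log2 fold change (oEV-EMT over oEV-ctrl) of the 26 tested microRNA processing genes on the x axis, with bars for the SE, and 1 gene per row with its role in parentheses. The estimates lie between -0.33 (Srsf3) and 0.59 (Lin28a), around the median of all genes tested of 0.17, which is drawn as a dashed line.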

How the data were processed

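RNA of 3 oEV-EMT and 3 oEV-ctrl pools of blastocysts was sequenced, and the authors deposited 1 value per gene and library. The authors assembled transcripts with StringTie on mm10, per the labels, while the aligner and the program that computed the values are not given in the sources used here. The study's methods speak of TPM and of DESeq2 on counts, but the deposited values summed to between 1293175 and 1551567 per library and were taken as FPKM, so a count model was not used. Read depth is unknown, and no counting interval was computed. The main design was the limma alternative for normalized values.

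Gene types, loci and hosts were taken from GENCODE M21 (GRCm38), to which 55227 of 55487 Ensembl rows matched, and sequences from RefSeq (GRCm38.p6) and GENCODE transcripts. Where a locus overlapped several genes, the host was an exon on the same strand, then an intron on the same strand, then an exon or an intron on the opposite strand. The test was limma 3.58.1 (R 4.3.3), with trend and robust estimation, on log2(FPKM + 1) of the 11924 genes at 1 FPKM or more in at least 3 libraries, with Benjamini-Hochberg adjustment over all of them. Fold changes on this scale understate those of low genes. The fit was tested on simulated data with 1000 changed genes per fold size. It recovered 0.1% at a log2 change of 1, 83.6% at 2 and 95.2% at 3.

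The members and lists were chosen with earlier results of these data known. The rule for named genes took the 12 highest members by mean, up to 6 in each direction with the smallest p among those without overlap between groups, the pairs beside the threshold, and the embryonic families. Mir22, Mir503, Mir101a, Gm23638, Gm24270, Gm25190, Gm27529 and the other members outside it were named after their values were seen. Alternatives covered the pseudocount, the filter, the scaling, a replicate block, library weights and leaving out each library. The paper's other experiments were not analysed here. Plots used matplotlib 3.10.9 (Python 3.11.15).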

Additional observations from a re-analysis of the deposited data

How the results depend on the processing

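The count of members lower at an unadjusted p of at most 0.05, 8 as reported, ran from 8 to 12 over 14 alternatives in processing and left-out libraries, and the 7 of them named by the rule kept that p and their direction in 14 of 14. These 7 were already lower at that p in the same libraries, and Gm26384 and Gm26269 met the rule through the oEV-ctrl libraries. Their stability is therefore a description and no added support. The share of all genes lower, 2.55%, is given for the main setting only, so these counts have no share beside them. The median of all genes went from 0.17 to 0.01 under median-of-ratios and -0.04 under upper quartile scaling, where 11 and 12 members were lower. Restricted to members sharing no 30-base stretch elsewhere, chosen after seeing the data, 2 were lower and 3 did not overlap. No member reached an adjusted p of 0.05 except 3 under library weights, Gm22758, Mir703 and Gm26269, with log2 fold changes of -1.39, -1.37 and -1.18 and adjusted p of 0.0333, 0.0341 and 0.0353 by limma (over all alternatives up to 0.609, 0.609 and 0.646). The median of the members went from -0.28 to -0.54 with a pseudocount of 0.1, and relative to all genes from -0.45 to -0.74. With a library left out it ran from -0.40 to -0.14 (-0.14 without oEV-ctrl 1), and the relative median from -0.60 to -0.29 (-0.29 without oEV-ctrl 1). Without the filter the relative median was -0.30. The single higher member became 0 with that pseudocount, without a filter, and under median-of-ratios and upper quartile scaling, and 2 with library weights. The count of processing genes, 1 as reported (Lin28a), was 0 without a filter, 2 under upper quartile scaling, where Lin28a was not among them, and 3 with weights. Genes past both thresholds over the whole table, 0 as reported, were 21 with the replicate block and 104 with library weights. Same-numbered libraries correlated by 0.119, -0.044 and 0.039 after removal of group means, and differently numbered ones by -0.135 to 0.122. With 3 libraries per group these values cannot settle whether the numbers pair the samples. With the block 9 members were lower. Leaving out 1 library gave 0 to 17 genes past both thresholds (4 without oEV-EMT 1, 17 without oEV-ctrl 3), 1 to 2 higher members, 0 to 3 members without overlap in the higher direction and 0 to 2 processing genes. The counts of higher members, of members without overlap and of processing genes have no share of all genes beside them either. With only 2 libraries left in a group, groups without overlap are also easier to reach. The rule kept 14 genes at 5 FPKM, and 7 of the 16 in exons had a protein-coding host on the same strand. Depth is unknown, so values near 0 cannot be bounded.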
